A study of Mus musculus with 4 samples.

Results

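Interferon-stimulated genes are described here in cultured mouse pancreatic islets, the clusters of hormone-secreting cells of the pancreas. The group is a list of 42 gene names, made up of the subunits of the interferon receptors, the transcription factors that carry or regulate interferon signals, sensors of viral RNA, and the antiviral effectors that interferons switch on. Genes were found by the gene name that the authors' deposited table gives to each probe, and 42 of 42 were present among 26265 named genes. All 42 were kept by the filter on dim probes and tested, in a fit that covered 17178 genes. Of these 42, 41 were well above background on all 4 arrays, and Oas3 was well above background on 3 of them.

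The study hybridised islet RNA to 1-colour Agilent arrays, which report 1 fluorescence intensity per probe and sample. Islets of 8-week-old C57BL/6 mice were kept for 24 h in RPMI1640 medium with 5.6 mM glucose. The GKA group (n = 2 arrays) received 30 µM of an agent labelled only as GKA, the usual short name of a glucokinase activator, and the vehicle group (n = 2 arrays) received its solvent DMSO. Nothing in the labels tells whether replicates were taken from different mice or cultures. The p-values therefore reflect the spread among these 4 arrays, part or all of which may be technical. Neither group was given an interferon or a virus according to the labels.

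Interferons are secreted proteins that alert cells to infection. Type I interferons bind the receptor built from Ifnar1 and Ifnar2, which signals through Stat2 and Irf9, among other factors, to a promoter element named ISRE (interferon-stimulated response element). Interferon gamma binds the receptor built from Ifngr1 and Ifngr2, which signals to an element named GAS (gamma-activated site), and Irf1 is a well known gene induced that way. The genes switched on encode proteins that bind or destroy viral RNA, block entry or budding of virus, and raise antigen presentation. Islets are known to respond to interferons, and interferon-stimulated genes have been studied in them in connection with autoimmune diabetes.

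The promoters of a few of these genes are shown because they carry the letters that interferon signals act on. Each is the RefSeq window of 300 bases on build GRCm38.p6, from 250 bases before to 50 bases after the annotated start, read 5′ to 3′ on the strand of the gene. Capitals mark matches to ISRE, searched as GAAA and GAAA with any 2 bases between them, or to GAS, searched as TTCNNNGAA, on both strands, and overlapping matches run together. Isg15 (chr4:156200769-156201068, minus strand), Ifit3 (chr19:34583279-34583578, plus strand) and Rsad2 (chr12:26456403-26456702, minus strand) hold ISRE letters. Irf1 (chr11:53769764-53770063, plus strand) and Isg20 (chr7:78913174-78913473, plus strand), each at the most upstream of its annotated starts, hold GAS letters.
Isg15: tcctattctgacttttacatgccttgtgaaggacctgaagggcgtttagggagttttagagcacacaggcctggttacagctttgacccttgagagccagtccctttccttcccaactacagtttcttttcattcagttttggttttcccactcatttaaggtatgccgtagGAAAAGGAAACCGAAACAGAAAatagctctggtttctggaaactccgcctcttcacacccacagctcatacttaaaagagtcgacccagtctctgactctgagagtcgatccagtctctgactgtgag
Ifit3: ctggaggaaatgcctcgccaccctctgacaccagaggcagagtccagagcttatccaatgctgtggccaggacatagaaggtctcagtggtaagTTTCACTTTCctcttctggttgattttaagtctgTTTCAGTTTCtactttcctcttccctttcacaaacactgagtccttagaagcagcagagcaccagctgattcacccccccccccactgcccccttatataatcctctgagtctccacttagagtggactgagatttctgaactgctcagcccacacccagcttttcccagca
Rsad2: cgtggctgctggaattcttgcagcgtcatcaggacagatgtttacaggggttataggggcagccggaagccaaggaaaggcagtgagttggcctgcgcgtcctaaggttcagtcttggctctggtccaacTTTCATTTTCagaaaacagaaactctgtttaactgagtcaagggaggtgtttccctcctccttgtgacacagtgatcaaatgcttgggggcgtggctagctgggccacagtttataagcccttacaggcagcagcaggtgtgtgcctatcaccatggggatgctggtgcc
Irf1: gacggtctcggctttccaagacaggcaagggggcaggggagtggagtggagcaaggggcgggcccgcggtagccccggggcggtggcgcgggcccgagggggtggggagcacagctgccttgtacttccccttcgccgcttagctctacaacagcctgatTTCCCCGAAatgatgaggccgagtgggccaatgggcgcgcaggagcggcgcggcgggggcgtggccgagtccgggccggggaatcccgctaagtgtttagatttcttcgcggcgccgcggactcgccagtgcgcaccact
Isg20: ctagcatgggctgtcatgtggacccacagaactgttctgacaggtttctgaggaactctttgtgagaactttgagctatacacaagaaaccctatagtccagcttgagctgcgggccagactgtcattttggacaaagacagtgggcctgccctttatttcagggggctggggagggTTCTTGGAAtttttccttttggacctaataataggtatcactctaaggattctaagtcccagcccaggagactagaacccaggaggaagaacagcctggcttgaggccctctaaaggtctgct

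In Isg15 3 matches overlap and begin at positions -78, -72 and -66 relative to the start. Ifit3 has 2 matches, which begin at -156 and -122, and Rsad2 has 1, which begins at -120. The GAS letters begin at -90 in Irf1 and at -73 in Isg20. Of the 42 genes 36 had a window in the table, with 43 windows in all, since several genes have more than 1 annotated start. ISRE letters stood in 18 of the 43 windows (41.9%), against 3.44% of all 32851 windows in the table. GAS letters stood in 13 of the 43 (30.2%), against 8.3% of all windows. A match to these letters describes the sequence and does not show that a factor binds there.

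**Figure D1:**
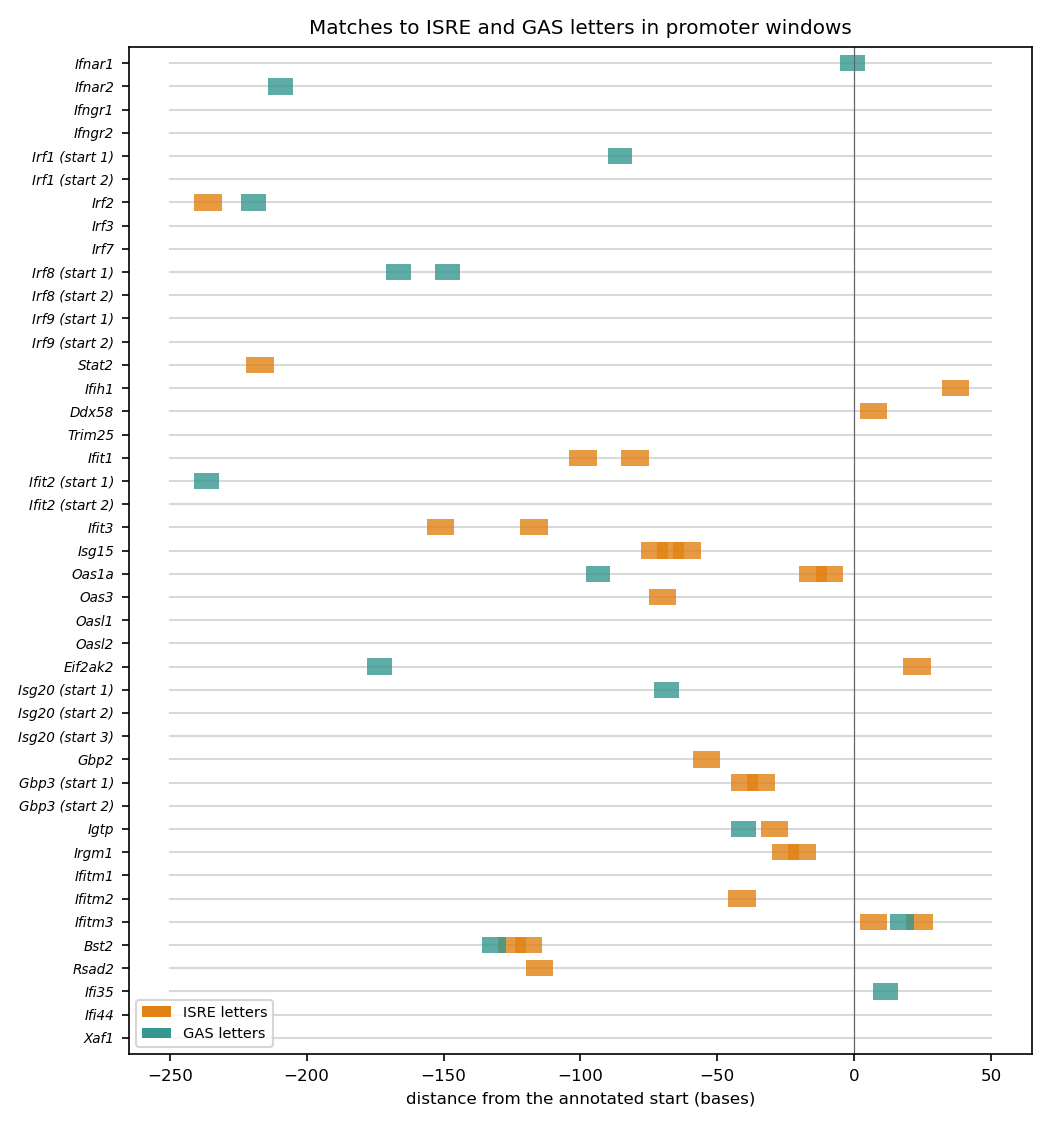
Matches to ISRE (orange) and GAS (green) letters in the RefSeq promoter windows of the 36 interferon genes that had one. The horizontal axis is the distance from the annotated start in bases, each grey line is 1 window, and the ISRE blocks of Irf2 and Stat2 lie farthest upstream.

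Of the probes 63.5% were well above background on GKA replicate 1 and 59.7% on GKA replicate 2, the lowest share. On vehicle replicates 1 and 2 the shares were 62.4% and 62.9%. Whether this bears on the levels below was not tested. No spot of any probe was marked as saturated, a count of 0. The 75th percentile of intensity was 557 and 598 on the GKA arrays, against 751 and 755 on the vehicle arrays. Levels are given below as log2 of the processed intensity minus the log2 of that percentile on the same array, so that a level of 0 equals the percentile. A level belongs to its probe and cannot be set against that of another probe. All 4 arrays came from 1 slide and 1 scan, with both GKA samples side by side at positions 3 and 4, so an effect of position cannot be told apart from one of GKA. All 9 listed markers of beta cells and all 7 of the other islet endocrine cells were measured. Of 9 markers of acinar and duct cells, Cpa1, Pnlip, Cela2a and Cela3b were not well above background on any array and Prss1 was on 1, while Ctrb1 and the duct genes Krt19, Krt7 and Cldn4 were on all 4.

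The question was whether GKA changed the expression of the interferon genes. Isg20 alone passed the test, and it was higher with GKA. Of the 42 genes 1 rose, 0 fell and 41 did not pass at an adjusted p under 0.05 (limma with Benjamini-Hochberg adjustment over all 17178 genes), that is 2.38% of the list. Of all genes tested 17.1% passed, 9.11% higher and 8.01% lower. At an unadjusted p under 0.05, 1 interferon gene was higher and 3 were lower with GKA, namely Irf8, Oasl1 and Ifitm1, against 18.2% higher and 17.9% lower among all genes. The median log2 difference of the 42 genes, GKA minus vehicle, was -0.17 (range -0.86 to 0.58), and that of all genes was -0.01. The difference was below 0 in 28 genes and above 0 in 14, so 66.7% were negative against 51.4% of all genes. Both GKA arrays lay above both vehicle arrays in 4 genes and below them in 7, against 32.4% and 33.5% of all genes.

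These counts depended on how the arrays were scaled and on single arrays. Without scaling 0 interferon genes were higher and 11 lower, with all genes at 750 higher and 7654 lower and a median of -0.40. With scaling to spike-in control probes 0 were higher and 22 lower, with all genes at 468 higher and 6108 lower and a median of -0.50. Relative to the median of all genes, that of the interferon genes stood at -0.16 under the 75th percentile scaling. It had to be the same under both of these settings, which move every gene by 1 amount. When 1 array was left out, it ran from -0.40 without GKA replicate 1 to 0.04 without vehicle replicate 2. The interferon genes' own median came to 0.04 without GKA replicate 2 and to -4.5e-05 without vehicle replicate 2, against -0.42 without GKA replicate 1 and -0.32 without vehicle replicate 1.

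**Figure D2:**
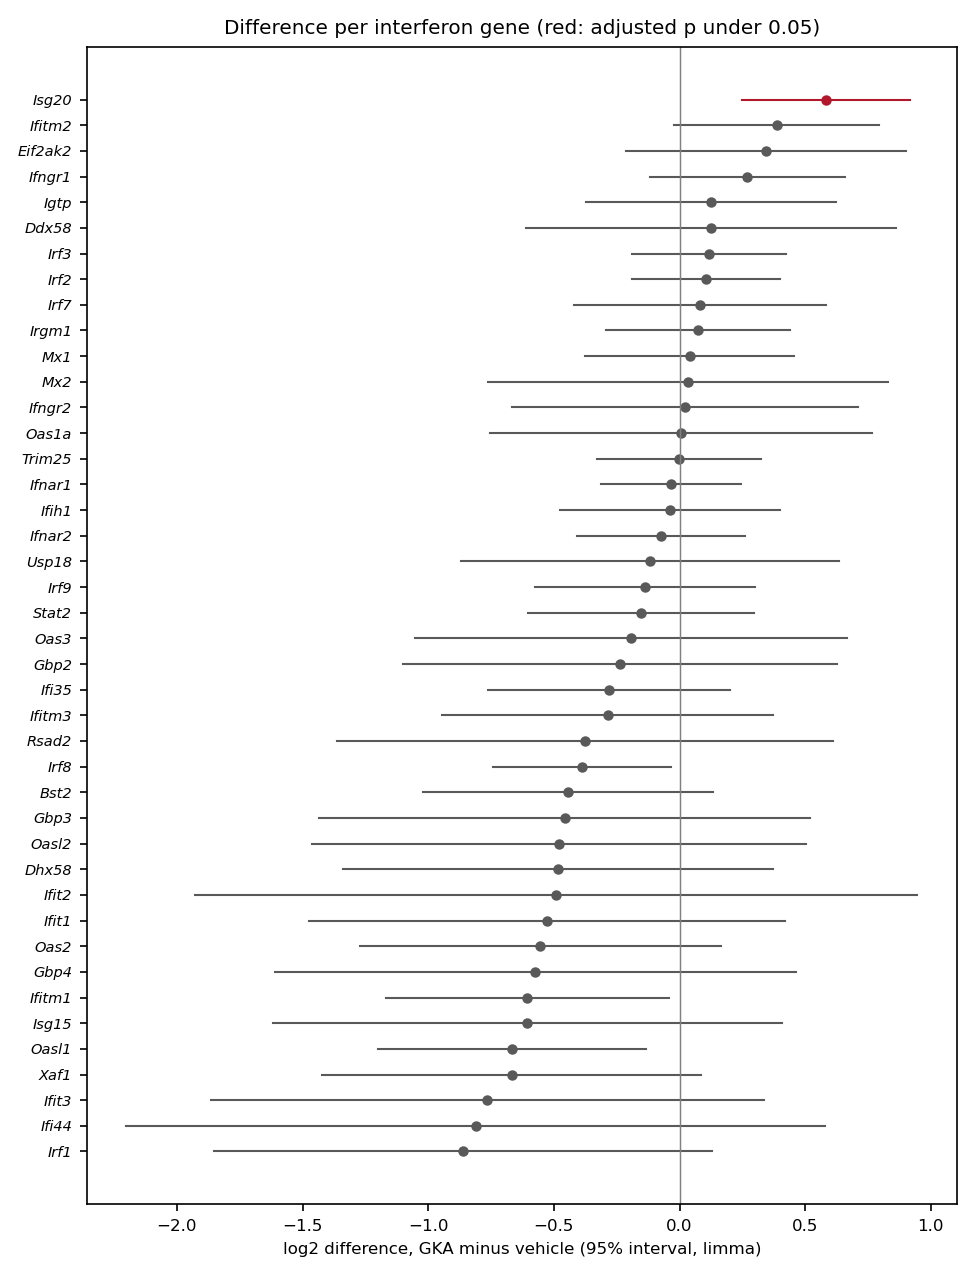
Log2 difference, GKA minus vehicle, of the 42 interferon genes, sorted by size, with 95% intervals from limma over 2 arrays per group. Isg20 (red) at 0.58 passed at an adjusted p under 0.05, and the intervals of most other genes (grey) span 0.

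**Figure D3:**
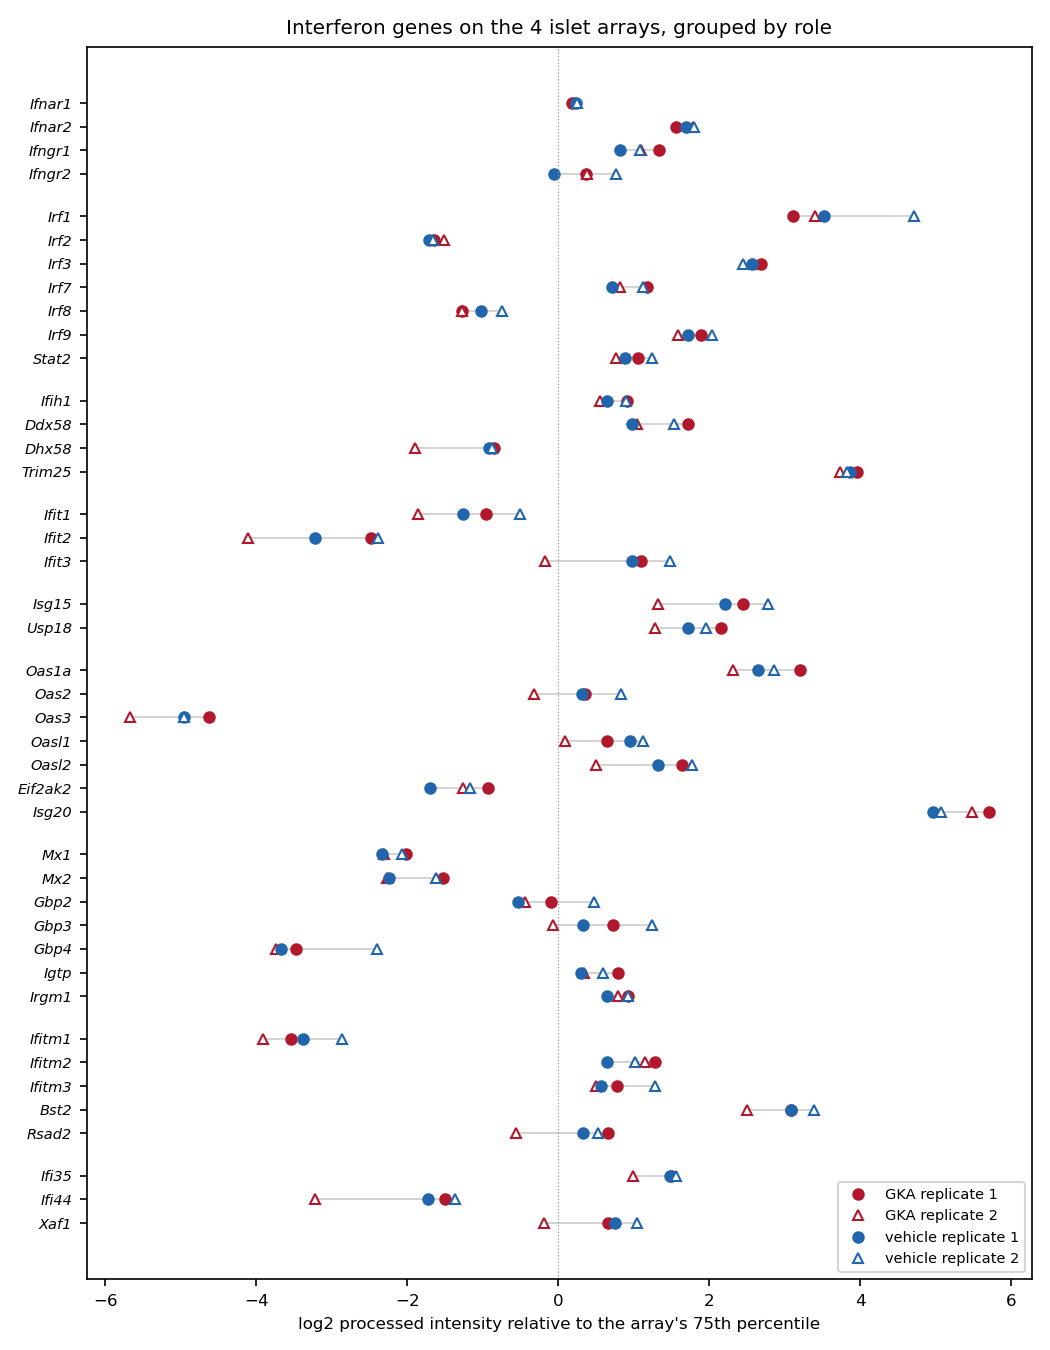
Level of each interferon gene on each of the 4 arrays (log2 of processed intensity over the array's 75th percentile), grouped by role, with GKA arrays in red and vehicle arrays in blue, circles for replicate 1 and triangles for replicate 2. The open red triangle of GKA replicate 2 is the leftmost point in 26 of the 42 genes, and the open blue triangle of vehicle replicate 2 is the rightmost in 23.

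None of the receptor subunits passed, a count of 0 in limma and also 0 at an unadjusted p under 0.05. Ifnar1, a subunit of the type I receptor, stood at 0.19 and 0.22 on the GKA arrays, against 0.23 and 0.25 on the vehicle arrays. Its partner Ifnar2 stood at 1.56 and 1.79 with GKA, against 1.70 and 1.80 with vehicle. The log2 differences were -0.03 ± 0.11 for Ifnar1 (SE, 95% interval -0.31 to 0.24) and -0.07 ± 0.13 for Ifnar2 (-0.41 to 0.26). The arrays therefore lay close together for the type I receptor, although 2 dimmer probes of Ifnar1 gave differences of 0.30 and 0.36. Ifngr1, the ligand-binding subunit for interferon gamma, stood at 1.34 and 1.10 with GKA, against 0.82 and 1.08 with vehicle, a difference of 0.27 ± 0.15 (adjusted p = 0.267 in limma). Ifngr2, its signalling partner, stood at 0.37 and 0.38 with GKA, against -0.05 and 0.76 with vehicle. The GKA arrays of Ifngr2 lay between its vehicle arrays.

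The 7 transcription factors did not pass either. Irf1, an activator induced by interferon gamma and by inflammatory signals, had the lowest log2 difference of the 42 genes, at -0.86 ± 0.39 (95% interval -1.85 to 0.13, adjusted p = 0.181 in limma). It stood at 3.12 and 3.40 on the GKA arrays, against 3.52 and 4.72 on the vehicle arrays. Vehicle replicate 2 was far above the other 3 arrays, and the difference passed without vehicle replicate 1 (-1.46, adjusted p = 0.0182), when only that array stood for the vehicle group. Without vehicle replicate 2 it was -0.26 (adjusted p = 0.386). Irf8, a factor of macrophage and dendritic cell development, stood at -1.27 and -1.28 with GKA, against -1.03 and -0.74 with vehicle (-0.39 ± 0.14, adjusted p = 0.114). Here both GKA arrays lay below both vehicle arrays.

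Irf9 and Stat2, which act in the complex that reads ISRE, gave overlapping groups. Irf9 stood at 1.90 and 1.59 with GKA, against 1.72 and 2.04 with vehicle, a difference of -0.14 ± 0.17. Stat2 stood at 1.06 and 0.77 with GKA, against 0.89 and 1.24 with vehicle, a difference of -0.15 ± 0.18. Both genes had the same order of arrays, with vehicle replicate 2 highest and GKA replicate 2 lowest. Irf3, the factor that RNA sensors activate to switch on interferon genes, stood at 2.69 and 2.56 with GKA, against 2.56 and 2.45 with vehicle (0.12 ± 0.12). Irf7, which amplifies the production of type I interferon, stood at 1.17 and 0.82 with GKA, against 0.71 and 1.13 with vehicle (0.08 ± 0.20). Irf2, an antagonist of Irf1, was close on all arrays, at -1.64 and -1.52 with GKA, against -1.71 and -1.66 with vehicle.

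The sensors of viral RNA and their regulators gave differences between -0.48 and 0.13, with none passing of 4 genes. Ddx58 encodes the sensor RIG-I and stood at 1.72 and 1.04 with GKA, against 0.98 and 1.54 with vehicle. Trim25, a ubiquitin ligase that activates RIG-I, stood at 3.95 and 3.73 with GKA, against 3.87 and 3.82 with vehicle, a difference of -0.00 ± 0.13 (95% interval -0.33 to 0.32). Ifih1, which encodes the sensor MDA5, stood at 0.91 and 0.56 with GKA, against 0.64 and 0.90 with vehicle. In these 3 genes the GKA arrays were not on 1 side of the vehicle arrays. Dhx58, which encodes the regulator LGP2, was at -0.85 on GKA replicate 1 and -1.90 on GKA replicate 2, against -0.91 and -0.87 with vehicle. GKA replicate 2 was the array that stood apart.

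The IFIT proteins bind viral RNA and block its translation. Their 3 genes had log2 differences of -0.53, -0.49 and -0.76 and none passed. Ifit1 stood at -0.96 and -1.86 on the GKA arrays, against -1.25 and -0.50 on the vehicle arrays (-0.53 ± 0.38, adjusted p = 0.364 in limma). Ifit2 stood at -2.48 and -4.11 with GKA, against -3.22 and -2.39 with vehicle (-0.49 ± 0.57, adjusted p = 0.574). Ifit3, whose promoter is shown above, stood at 1.10 and -0.18 with GKA, against 0.97 and 1.48 with vehicle (-0.76 ± 0.44, adjusted p = 0.266). In all 3 genes GKA replicate 2 was the lowest array and vehicle replicate 2 the highest. GKA replicate 1 lay between the vehicle arrays in each of them.

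Isg15 encodes a ubiquitin-like modifier and Usp18 the protease that removes it and also dampens signalling from the type I receptor. Isg15 stood at 2.45 and 1.33 on the GKA arrays, against 2.21 and 2.78 on the vehicle arrays. Its difference was -0.61 ± 0.40 (95% interval -1.62 to 0.41, adjusted p = 0.332 in limma). The second probe of Isg15 had the same order of arrays, at -1.02 and -2.09 with GKA, against -1.17 and -0.79 with vehicle. Usp18 stood at 2.16 and 1.28 with GKA, against 1.72 and 1.95 with vehicle, a difference of -0.12 ± 0.30. The GKA arrays lay on either side of both vehicle arrays.

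Among the OAS family and other effectors that act on RNA, Isg20 rose and the other 6 did not pass. Isg20 encodes an exonuclease that degrades RNA, and its probe lies at chr7:86065136-86065195 on build mm9. It stood at 5.71 and 5.49 on the GKA arrays, against 4.96 and 5.07 on the vehicle arrays. Both GKA arrays were above both vehicle arrays, also in processed intensity before scaling. The log2 difference was 0.58 ± 0.13 (SE, 95% interval 0.25 to 0.92), or 1.5-fold (adjusted p = 0.0418 in limma). A second probe of Isg20 stood at 4.80 and 4.32 with GKA, against 3.95 and 4.25 with vehicle, a difference of 0.46. The call passed in 5 of 14 alternative settings and was lost in 9, with adjusted p from 0.0108 to 0.776 and differences from 0.10 to 0.69. It was lost without scaling (0.20, adjusted p = 0.215), with spike-in scaling (0.10, adjusted p = 0.776) and when any 1 of the 4 arrays was left out (0.47 to 0.69, adjusted p from 0.0751 to 0.163).

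The oligoadenylate synthetases make the messenger that activates RNase L. Oas1a stood at 3.20 and 2.31 with GKA, against 2.64 and 2.86 with vehicle, a log2 difference of 0.01 ± 0.30. Oas2 stood at 0.36 and -0.32 with GKA, against 0.31 and 0.83 with vehicle (-0.55 ± 0.28, adjusted p = 0.224 in limma). Oas3 was dim, at -4.62 and -5.67 with GKA, the last of these not well above background, against -4.96 and -4.95 with vehicle. Vehicle arrays lay within the range of the GKA arrays for Oas1a and Oas3. Oasl1, known in mice as a translational inhibitor of Irf7, stood at 0.65 and 0.09 with GKA, against 0.95 and 1.13 with vehicle (-0.67 ± 0.21, 95% interval -1.20 to -0.13, unadjusted p = 0.0232, adjusted p = 0.0877). The groups of Oasl1 did not overlap. Oasl2 stood at 1.64 and 0.50 with GKA, against 1.33 and 1.77 with vehicle. Eif2ak2, which encodes the RNA-activated kinase PKR, stood at -0.92 and -1.26 with GKA, against -1.70 and -1.17 with vehicle (0.35 ± 0.22, adjusted p = 0.316).

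The interferon-induced GTPases, which act on virus particles or on vacuoles that hold pathogens, gave 0 calls of 7 genes in limma and 0 at an unadjusted p under 0.05. Irgm1, a regulator of the immunity-related GTPases, stood at 0.93 and 0.79 with GKA, against 0.65 and 0.92 with vehicle. Igtp, which encodes the related GTPase Irgm3, stood at 0.80 and 0.34 with GKA, against 0.30 and 0.59 with vehicle. Their log2 differences were 0.07 ± 0.14 and 0.13 ± 0.20. The guanylate-binding proteins Gbp2, Gbp3 and Gbp4 showed 1 vehicle array above the rest. Gbp2 stood at -0.09 and -0.43 with GKA, against -0.53 and 0.47 with vehicle. Gbp3 stood at 0.73 and -0.07 with GKA, against 0.33 and 1.24 with vehicle. Gbp4 stood at -3.48 and -3.74 with GKA, against -3.67 and -2.40 with vehicle. In each, vehicle replicate 2 was the highest array and vehicle replicate 1 lay within or below the GKA arrays. The antiviral dynamin-like genes were close between the groups, with Mx1 at 0.04 ± 0.16 and Mx2 at 0.03 ± 0.31. C57BL/6 and most other inbred laboratory strains are known to carry a defective Mx1 gene.

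The restriction factors that act at membranes gave no call of 5 genes. Bst2, or tetherin, holds budding virus at the cell surface, and stood at 3.09 and 2.51 with GKA, against 3.09 and 3.39 with vehicle (-0.44 ± 0.23, adjusted p = 0.225 in limma). Rsad2, or viperin, stood at 0.66 and -0.55 with GKA, against 0.33 and 0.53 with vehicle (-0.38 ± 0.39, adjusted p = 0.529). The arrays of Rsad2 differed more within the GKA group than between the groups. The IFITM proteins, which hinder the entry of virus, did not share a direction. Ifitm1 stood at -3.54 and -3.91 with GKA, against -3.38 and -2.86 with vehicle (-0.60 ± 0.22, unadjusted p = 0.0399, adjusted p = 0.12). Ifitm2 stood at 1.28 and 1.15 with GKA, against 0.65 and 1.01 with vehicle (0.39 ± 0.16, adjusted p = 0.153). Ifitm3 stood at 0.78 and 0.50 with GKA, against 0.57 and 1.29 with vehicle (-0.29 ± 0.26, adjusted p = 0.473). The groups did not overlap for Ifitm1, which was lower with GKA, or Ifitm2, which was higher, and they overlapped for Ifitm3. The Ifitm2 difference was -0.10 with spike-in scaling.

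The last 3 genes are induced by interferon, and none passed. Ifi35 stood at 1.50 and 1.00 with GKA, against 1.49 and 1.57 with vehicle (-0.28 ± 0.19). Xaf1, which encodes a partner of the apoptosis inhibitor XIAP, stood at 0.66 and -0.19 with GKA, against 0.76 and 1.05 with vehicle (-0.67 ± 0.30, adjusted p = 0.175 in limma). Ifi44 stood at -1.49 and -3.22 with GKA, against -1.73 and -1.36 with vehicle (-0.81 ± 0.55, 95% interval -2.20 to 0.58, adjusted p = 0.343). GKA replicate 2 was the lowest array in all 3 genes. For Ifi44 the call of lower with GKA appeared without GKA replicate 1 (-1.67, adjusted p = 0.0385), when only that array stood for the GKA group.

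Replicates of the same group often differed in these genes by more than the group means did. In 36 of the 42 genes (85.7%, against 45.3% of all genes) the larger of the 2 within-group gaps exceeded the difference between the group means. A gap between single arrays varies more than a difference of means, so a gene with little group difference often gives this. The median residual standard deviation was 0.36 on the log2 scale, against 0.13 for all genes. The gaps mostly ran 1 way. GKA replicate 1 was above GKA replicate 2 in 37 of 42 genes (88.1%, against 58.4% of all genes), by a median of 0.36 against 0.04. Vehicle replicate 2 was above vehicle replicate 1 in 40 of 42 (95.2%, against 42.5%), by a median of 0.31 against -0.04. Both held in 35 genes (83.3%, against 22.5%). These shares describe the 4 arrays and carry no test, because genes on an array are not independent.

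By role, the median gap on the GKA arrays was widest in the IFIT genes and smallest in the receptors. The vehicle arrays also had it widest in the IFIT genes, with the other roles in another order. GKA replicate 1 exceeded GKA replicate 2 by a median of 1.28 in the 3 IFIT genes, 1.00 in the ISG15 system, 0.86 in Ifi35, Ifi44 and Xaf1, and 0.68 in the OAS family and RNA-acting effectors. The median was 0.52 in the RNA sensors, 0.37 in the membrane-acting factors, 0.34 in the GTPases and 0.13 in the transcription factors. Among the 4 receptor genes GKA replicate 1 was the higher in 1, with a median of -0.02. On the vehicle arrays the median gap, replicate 2 over replicate 1, was 0.75 in the IFIT genes, 0.62 in the GTPases, 0.40 in the ISG15 system, 0.37 in the membrane-acting factors, 0.32 in the transcription factors, 0.29 in Ifi35, Ifi44 and Xaf1, 0.21 in the OAS family and RNA-acting effectors, 0.18 in the receptors and 0.15 in the RNA sensors. In the single genes the gap on the GKA arrays reached 1.72 in Ifi44 and 1.63 in Ifit2, and that on the vehicle arrays 1.27 in Gbp4 and 1.19 in Irf1. In 5 genes (Ifnar1, Ifnar2, Ifngr2, Irf1 and Irf2) GKA replicate 1 was instead below GKA replicate 2, with differences of -0.29 in Irf1, -0.22 in Ifnar2 and -0.12 in Irf2.

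**Figure D4:**
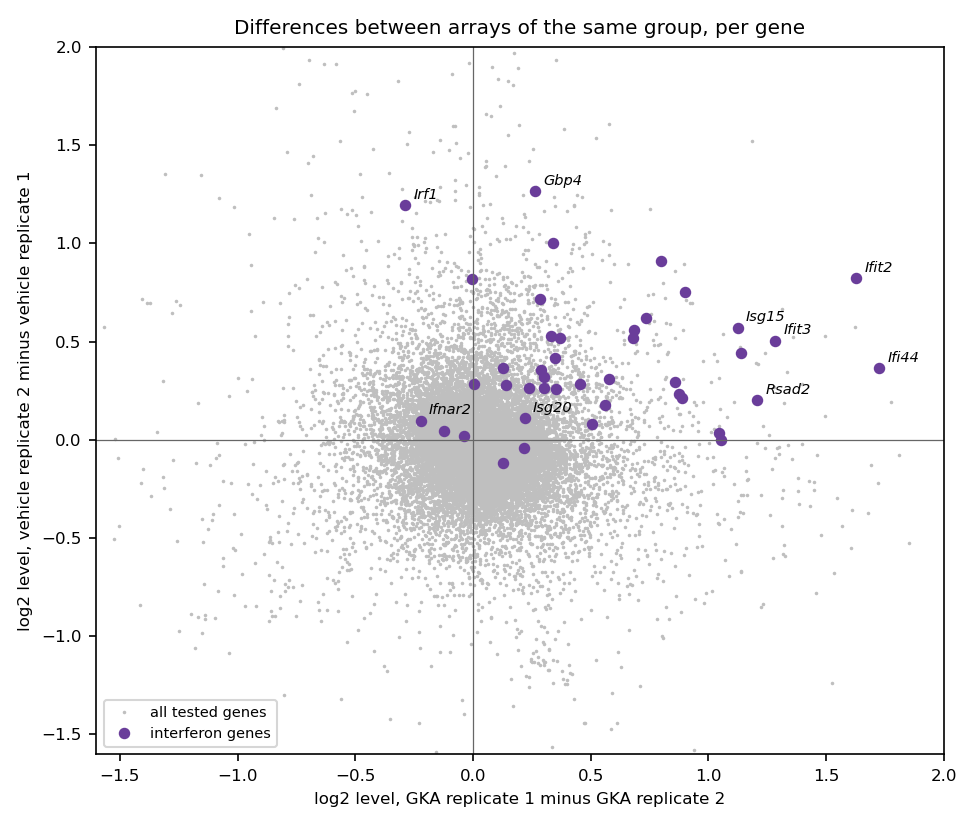
Differences between the arrays of 1 group for the 42 interferon genes (purple) and all tested genes (grey; 44 of 17178 lie outside the axes), on the log2 scale. The horizontal axis is GKA replicate 1 minus GKA replicate 2 and the vertical axis vehicle replicate 2 minus vehicle replicate 1, and 35 of the 42 genes lie to the upper right, where both differences are above 0.

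Probes not used in the tests mostly had the same order of replicates within each group. They were read on the same 4 arrays, so they are not independent of the tested probes. Of 10 further probes of the 42 genes 8 were well above background on at least 3 arrays. In 7 of these 8 GKA replicate 1 was above GKA replicate 2 and vehicle replicate 2 above vehicle replicate 1. Both held in 22.5% of all genes. The exception was a dim probe of Ifnar1. Another dim Ifnar1 probe, counted among the 7, stood at -3.68 and -3.75 with GKA. The tested Ifnar1 probe had the other order there, at 0.19 and 0.22. The order also held under other scalings, with 36 to 39 of 42 genes for the GKA arrays and 40 to 42 for the vehicle arrays, although with spike-in scaling 74.2% and 90% of all genes shared it. Genes with ISRE letters in a promoter window had a median gap of 0.52 on the GKA arrays and 0.36 on the vehicle arrays (n = 18), and those without had 0.27 and 0.29 (n = 18). The ranges on the GKA arrays overlapped, at -0.12 to 1.28 with ISRE letters and -0.29 to 1.72 without. The genes without them included the 4 receptor genes as well as Ifi44 and Ifit2. The median difference between GKA and vehicle was -0.17 with ISRE letters and -0.21 without.

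**Figure D5:**
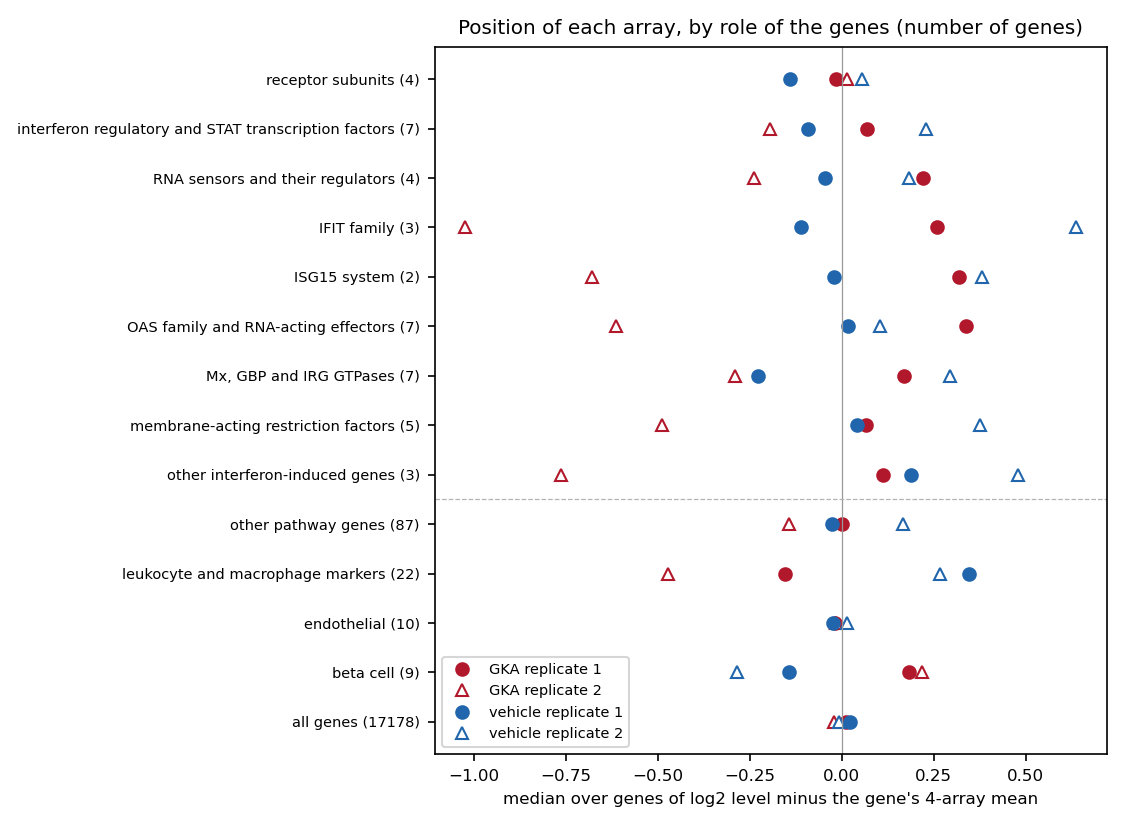
Median over the genes of a role or list of the level on each array minus the gene's mean over the 4 arrays (log2), with the number of genes in brackets, GKA arrays in red and vehicle arrays in blue. In the IFIT family GKA replicate 2 lies at -1.02 and vehicle replicate 2 at 0.64, while in all 17178 genes the 4 arrays lie between -0.02 and 0.02.

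Other genes of the interferon pathway were taken from a list of 116 names, of which 103 were on the array and 87 were tested. Of these 3 rose, 5 fell and 79 did not pass, with a median log2 difference of -0.11. The called share was 9.2%, against 17.1% of all genes. The counts were 1 higher and 40 lower without scaling (46.0% lower, against 44.6% of all genes), 1 and 38 with spike-in scaling (43.7% lower, against 35.6%), 0 and 1 without GKA replicate 1, and 0 and 0 without GKA replicate 2 or without the dim-probe filter. The kinases bound to the receptors and their feedback inhibitors did not pass. Jak1 stood at -0.36 ± 0.11 (log2 difference, adjusted p = 0.0826 in limma), Jak2 at -0.19 ± 0.12 and Tyk2 at -0.15 ± 0.15, while the inhibitors Socs1 and Socs3 stood at 0.04 ± 0.17 and -0.04 ± 0.28. Of the ligands, Ifnb1, Ifng and Ifna4 were not well above background on any array. Ifna1 and Ifna2 were dim, with differences of 0.49 ± 0.18 (adjusted p = 0.12) and 0.46 ± 0.18 (adjusted p = 0.14), and probes for these closely related genes may share signal.

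The pathway genes that fell included a chemokine and immunoproteasome subunits. Cxcl10, a chemokine that attracts T cells, stood at 0.55 and 0.02 on the GKA arrays, against 1.75 and 3.28 on the vehicle arrays (log2 difference -2.23 ± 0.51, adjusted p = 0.0419 in limma). Within each group its replicates had the order of most interferon genes, with vehicle replicate 2 far above vehicle replicate 1. Both GKA arrays lay below both vehicle arrays, which held in only 7 of the 42 interferon genes. Without vehicle replicate 2 the difference of Cxcl10 was -1.46. The Cxcl10 call was lost in 4 of 14 alternative settings, among them the one without the filter on dim probes (adjusted p = 0.136) and those when either GKA array was left out (adjusted p = 0.108 without replicate 1 and 0.18 without replicate 2). Psmb9, an immunoproteasome subunit, stood at 1.83 and 1.54 with GKA, against 2.66 and 2.69 with vehicle (-0.99 ± 0.14, adjusted p = 0.0153). Psmb10, another such subunit, stood at 4.56 and 4.18 with GKA, against 5.06 and 5.15 with vehicle (-0.73 ± 0.16, adjusted p = 0.0392). The third subunit, Psmb8, did not pass, at 2.51 and 2.03 with GKA, against 2.48 and 2.75 with vehicle (-0.35 ± 0.20, adjusted p = 0.28). Pml, which organises nuclear bodies, fell by 0.81 on the log2 scale (adjusted p = 0.0207), and the RNA helicase gene Mov10 fell by 0.60 (adjusted p = 0.0335). Of 14 alternative settings, the call of Psmb9 was lost in 2, that of Pml in 4, that of Mov10 in 5 and that of Psmb10 in 6, among them each array left out.

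The pathway genes that rose were Ifi27l2b, Tlr4 and Ticam1. On both vehicle arrays Ifi27l2b, an interferon-inducible gene, failed to stand well above background. It passed the dim-probe filter only through the GKA arrays, where it was brighter, so its call is not independent of that filter. In the main setting the bound on its fold with GKA was 3.08 (adjusted p = 0.0132 in limma). Measured mean levels were -4.10 with GKA and -5.75 with vehicle. With normexp background correction the log2 difference of Ifi27l2b was 0.61 under the 75th percentile and 0.32 under quantile normalization, against 1.66 without it. The bound therefore does not hold across settings, and the call was lost in 3 of 13 alternatives. Tlr4, the receptor for bacterial lipopolysaccharide, was dim, at -4.20 and -4.18 with GKA, against -4.78 and -4.81 with vehicle (0.60 ± 0.11, adjusted p = 0.0259). Ticam1, which encodes the Toll-like receptor adaptor TRIF, stood at 0.53 and 0.43 with GKA, against -0.15 and -0.09 with vehicle (0.59 ± 0.12, adjusted p = 0.0298). The calls of Tlr4 and Ticam1 were each lost in 8 of 14 alternative settings, among them no scaling (0.22 and 0.21), spike-in scaling (0.12 and 0.11) and each array left out.

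Leukocytes, which islets contain and which express many interferon genes, also differed between the arrays by their markers. Of 23 listed markers 22 were tested, of which 1 rose (Cd14) and 8 fell with GKA, with a median log2 difference of -0.60. The called share was 40.9%, against 17.1% of all genes, and 36.4% were lower, against 8.01%. Lyz2 (log2 difference -2.14) passed the dim-probe filter only through the vehicle arrays, where it was brighter. Its call of lower is thus not independent of that filter. With only probes well above background on all 4 arrays, 10 of 21 markers fell (47.6%, against 9.67% of all genes). The median was negative in every alternative setting run (-1.08 to -0.45). Without scaling 18 fell (81.8%, against 44.6% of all genes), and without the dim-probe filter 0 fell (against 0.255%). The number that fell also depended on which array was left out. Their summed level, in units of each array's 75th percentile, was 21.70 and 18.96 on the GKA arrays, against 27.97 and 26.58 on the vehicle arrays. GKA replicate 1 was above GKA replicate 2 in 20 of the 22 markers (90.9%, against 58.4% of all genes). Vehicle replicate 2 was above vehicle replicate 1 in 7 of them (31.8%, against 42.5%). The order of the GKA arrays was thus that of the interferon genes, and the order of the vehicle arrays was not. Markers of fibroblasts and stellate cells showed the reverse, with GKA replicate 1 above GKA replicate 2 in 1 of 7 and vehicle replicate 2 above vehicle replicate 1 in 6 of 7, by a median of 0.34. Their summed level was 4.61 and 5.17 on the GKA arrays, against 6.31 and 7.96 on the vehicle arrays. Of the 22 leukocyte markers 18 had a difference below 0 and 4 above. In islets measured in bulk, the number of leukocytes and the level of each marker in them cannot be told apart. The part of any of these cells in the levels of the interferon genes was not tested. Levels are relative within an array, and the 9 beta cell markers summed to 1427 and 1392 with GKA, against 1131 and 1129 with vehicle. Of 12 markers of lymphocytes 4 were tested, and Cd3d, Cd3g and Ms4a1 were well above background on none of the arrays. Of 5 markers of plasmacytoid dendritic cells, a main source of type I interferon, 2 were tested and neither passed. Ccr9, Ly6d and Klk1 were not well above background on any array. The 2 tested were bright, with Siglech at a mean of 5.23 with GKA and 5.28 with vehicle, and Cox6a2 at 3.54 and 3.78. Whether their probes report that cell type in islets was not tested.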

How the data were processed

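RNA of 4 islet samples, 2 treated with GKA and 2 with vehicle, was measured on 1-colour arrays. The deposited intensity values were background-subtracted with Agilent Feature Extraction, version 10.7.3.1 per the file headers and version 9.1 per the submitters' processing notes. They were not scaled between arrays. The authors' deposited table of 1 intensity per group and probe, which equals the mean of the arrays within 0.1%, supplied gene names and mm9 probe positions only. The array files also hold other deposited columns, the flags used here for spots and background.

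Values were log2 intensity minus each array's 75th percentile. Control spots and outlier spots were dropped and replicate spots averaged. The dim-probe filter asked for signal well above background on each array of either group, and 22140 of 33697 named probes met it. Each gene was represented by its brightest probe. The groups were compared with a two-sided test in limma version 3.58.1 (R version 4.3.3). Benjamini-Hochberg adjustment ran over 17178 genes, with a threshold of 0.05. The fit had 2 residual and 3.33 prior degrees of freedom, and the number of arrays limits the precision. An exact permutation test of 4 arrays cannot go below p = 0.333 and was not used. The scripts were tested on simulated data.

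A bound on a fold sets the brighter group's mean against the mean, per array, of whichever is larger, the dim gene's level or the lowest level well above background. It applies at most to the main setting, and a level above that floor can still fail to count as well above background. For normexp, median in place of mean spot signals were used, the column the files hold. Current RefSeq symbols matched all 42 genes. Genes named with values were, by rule, those that passed, the 2 brightest of each role without a passing gene, the receptors, Irf9, Stat2 and Isg15, and of the pathway list the largest changes, the kinases and 2 Socs genes. All others were named after their values were seen. The 42 genes and all lists were chosen with earlier results of these data known. Settings varied were scaling, background correction, the dim-probe filter, the probe rule, the threshold, a replicate block and each array in turn. Some listed genes are not reported here.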

Additional observations from a re-analysis of the deposited data

How the results depend on the processing

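Isg20 kept its direction in all 14 alternatives, and its call was lost in 9. The count of interferon genes higher with GKA was 0 without scaling, with spike-in scaling, without the dim-probe filter, with the mean of probes and with a replicate block, and 0 whichever 1 array was left out. The count lower was 11 without scaling, 22 with spike-in scaling and 1 (Oasl1) with either normexp setting or an adjusted p under 0.1, and 0 to 2 when 1 array was left out (Ifi44 without GKA replicate 1, Gbp4 and Irf1 without vehicle replicate 1). The median difference was -0.56 without scaling and -0.66 with spike-in scaling. Counts over all genes, higher and lower with GKA, were 750 and 7654 without scaling, 468 and 6108 with spike-in scaling, 156 and 67 without the dim-probe filter (over 26263 genes), 2522 and 2482 at an adjusted p under 0.1, and 1014 and 902 with the replicate block. With normexp 2990 were higher under the 75th percentile and 2067 lower under quantile normalization. When 1 array was left out, 265 to 1322 were higher and 119 to 1120 lower. The labels do not say whether replicate numbers pair the samples. Deviations of same-numbered arrays from their group means correlated with r = 0.0751 over all genes. That value cannot decide it, since a shared origin may leave only a small effect. With the replicate block Isg20 had an adjusted p = 0.071 in limma. Settings without scaling, with median scaling and with spike-in scaling moved every gene by 1 amount (-0.384, -0.0513 and -0.486), so the 32 changes of sign they gave follow from the size of each difference. The other settings gave 42. Signs changed without scaling for Ifngr1 (-0.11), Ifngr2 (-0.36), Irf2 (-0.28), Irf3 (-0.27), Irf7 (-0.30), Ddx58 (-0.26), Oas1a (-0.38), Eif2ak2 (-0.039), Mx1 (-0.34), Mx2 (-0.35), Igtp (-0.26), Irgm1 (-0.31) and Socs1 (-0.35). With spike-in scaling they did for Ifngr1 (-0.22), Ifngr2 (-0.47), Irf2 (-0.38), Irf3 (-0.37), Irf7 (-0.41), Ddx58 (-0.36), Oas1a (-0.48), Eif2ak2 (-0.14), Mx1 (-0.45), Mx2 (-0.45), Igtp (-0.36), Irgm1 (-0.41), Ifitm2 (-0.10) and Socs1 (-0.45). With median scaling they did for Ifngr2 (-0.030), Oas1a (-0.045), Mx1 (-0.011), Mx2 (-0.017) and Socs1 (-0.013). With the mean of probes they did for Ifnar1 (0.21) and Oas1a (-0.037), and with normexp for Oas3 (0.31) under the 75th percentile and for Oas3 (0.032) and Mx2 (-0.0059) under quantile normalization. When 1 array was left out, the sign depended on the array for Ifnar2 (-0.18 to 0.038), Ifngr2 (-0.39 to 0.43), Irf7 (-0.13 to 0.29), Irf9 (-0.30 to 0.023), Stat2 (-0.33 to 0.025), Ifih1 (-0.21 to 0.14), Ddx58 (-0.22 to 0.47), Dhx58 (-1.005 to 0.042), Trim25 (-0.11 to 0.11), Ifit2 (-1.31 to 0.32), Usp18 (-0.55 to 0.32), Oas1a (-0.44 to 0.45), Oas3 (-0.72 to 0.33), Oasl2 (-1.05 to 0.090), Mx1 (-0.11 to 0.19), Mx2 (-0.33 to 0.40), Gbp2 (-0.74 to 0.26), Gbp4 (-1.21 to 0.060), Igtp (-0.10 to 0.35), Irgm1 (-0.064 to 0.21), Ifitm3 (-0.64 to 0.072), Rsad2 (-0.98 to 0.23), Ifi44 (-1.67 to 0.051), Tyk2 (-0.31 to 0.0052), Socs1 (-0.18 to 0.26) and Socs3 (-0.39 to 0.30), given as the lowest to the highest difference. The cause of the changes outside these scalings was not tested. The lone array of a group is then assumed to vary like the others. With 2 arrays per group, small differences in genes with a spread as wide as here could not be resolved, nor could some larger ones. In the test on simulated data, limma recovered 40.4% of 2-fold changes and 93.6% of 4-fold changes. The simulated spread was drawn from the fit over all genes. Their median residual standard deviation was 0.13, against 0.36 for the interferon genes, so these shares do not hold for the interferon genes. The limma intervals in the main setting ran from -1.93 to 0.95 for Ifit2 and from -2.20 to 0.58 for Ifi44. Both held 0 as well as a fall of more than 2-fold, so not passing does not show that a gene was unchanged. Dim genes such as Oas3 are limited by their signal over background.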
